A study of Oryza sativa with 8 samples.

Results

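The comparison of the first leaf with the coleoptile in shade rests on 4 of the 8 RNA-seq libraries of a study of rice seedlings (cultivar Nipponbare, wild type). The coleoptile is the closed sheath that guards the shoot of a grass seedling, and the first leaf is a green leaf that grows out through it. Of the 55801 loci in the table, the 20916 whose mean over these 4 libraries reached 1 FPKM were tested, and 34885 were left out, of which 24441 were listed at 0 in all 4. FPKM counts the fragments of a transcript relative to its length and to all fragments mapped in the library, so levels can be set beside each other between genes.

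The 2 first leaf libraries came from seedlings aged 3 days and the 2 coleoptile libraries from seedlings aged 2 days, so organ and age cannot be told apart. All 4 libraries were taken after 1 h in simulated shade at 28 °C, with 16 µE per square metre per second of red light, 1.3 of blue and 48 of far-red. Before that, seeds had stood in sterile water for 24 h at 37 °C and the seedlings had grown at 28 °C under white light without a dark period. The other 4 libraries, 2 of each organ at the same ages, stayed in white light. Nothing in the labels ties a replicate to a culture of its own, so each p-value measures no more than the scatter among these libraries, and that scatter may be technical.

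A coleoptile is a short-lived organ. It elongates by cell expansion, lets the leaves through when it splits, and then senesces, while the leaf goes on to build the photosynthetic apparatus, a cuticle and lignified veins. Shade, which is poor in red and rich in far-red light, is read by the phytochromes and is known to promote elongation of shoot organs through auxin and gibberellin. Unless white light is named, first leaf and coleoptile below mean the shaded libraries. Folds are on the log2(FPKM + 1) scale, first leaf minus coleoptile, which understates the change of low genes, and the value after ± is limma's standard error (SE, n = 2 libraries an organ).

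Deposited FPKM summed to between 696060 and 771174 in the 4 shaded libraries. Total fragment numbers are not given, and the spacing of low values put their relative depths at 0.868 to 1.37, taking coleoptile replicate 1 as 1. Replicates correlated at r = 0.974 for the first leaf, with 565 loci over 2-fold apart, and at r = 0.981 for the coleoptile, with 307, across the tested loci. Between the organs r was 0.875 to 0.890, with 3006 to 3496 loci over 2-fold apart, and the first principal component of the 4 libraries, which separated the organs, held 82.3% of the variance. In white light the first leaf replicates had r = 0.978 and the coleoptile replicates r = 0.921, with 3001 loci over 2-fold apart. The white light libraries were therefore kept out of the fit for shade, and a fit to all 8 libraries is given where it ends a call.

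Of the 20916 loci, limma called 4049 (19.4%) at an adjusted p under 0.05, of which 2222 (10.6%) were higher in the first leaf and 1827 (8.73%) were lower. The median difference over all tested loci was 0.0017 on the log2 scale. Median differences were 1.22 for the called loci higher in the leaf and -1.24 for those lower, and the smallest called differences were 0.57 and 0.56 in size. More of the large differences lay on the side of the coleoptile, with 66 called loci at least 8-fold higher in the leaf and 157 at least 8-fold lower. At 32-fold or more, 6 were higher and 39 lower, counts that include loci listed at 0 in 1 organ. These counts rest on the pseudocount, and with 0.1 in its place they were 237 higher and 341 lower at 8-fold, and 45 higher and 117 lower at 32-fold. Of the called loci, 374 higher ones averaged under 1 FPKM in the coleoptile and 386 lower ones under 1 FPKM in the first leaf, so these passed the filter through 1 organ only and their direction followed from it. Without coleoptile replicate 1 the calls numbered 1826 and without coleoptile replicate 2 they numbered 1603, against 3409 and 2926 without first leaf replicate 1 and 2. The fit to all 8 libraries called 2272 (10.9%), with 5.92% higher and 4.94% lower, of which 2267 were among the 4049 and none had the opposite sign. For the gene lists that follow, brackets give the median difference and, where either count moved by over 1.5 times, the counts higher and lower without a shaded replicate (leaf 1 or 2, coleoptile 1 or 2) or in the fit to all 8. The counts of each list are to be read beside the shares over all tested loci, 10.6% higher and 8.73% lower. No list was tested as a set.

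**Figure D1:**
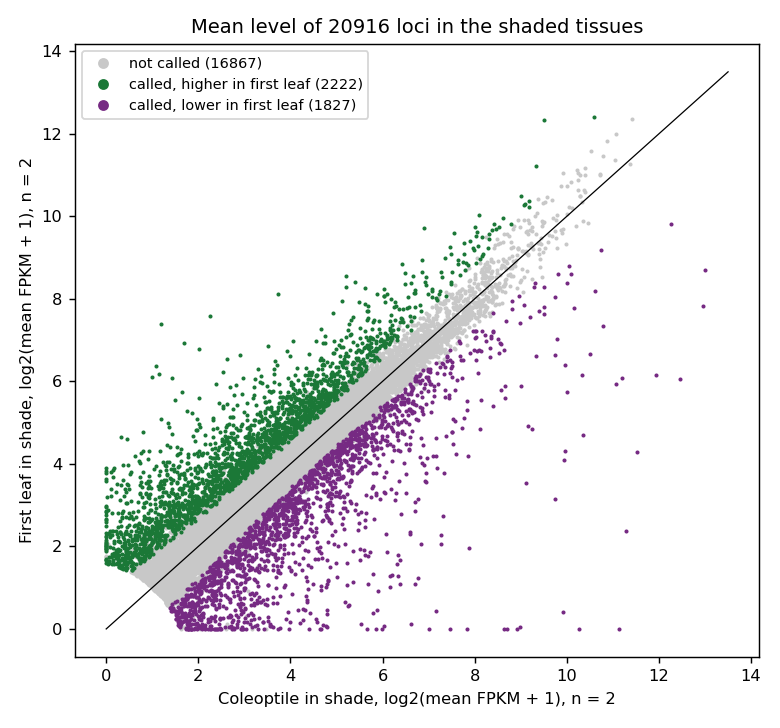
Mean level of each of the 20916 tested loci in the 2 shaded first leaf libraries (vertical axis) and the 2 shaded coleoptile libraries (horizontal axis), as log2(mean FPKM + 1), with equality as the black line. Green points are the 2222 loci called higher in the first leaf and purple points the 1827 called lower, and the points farthest from the line lie along the bottom edge, at high coleoptile and near-zero first leaf levels.

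Loci at the edge of the filter had these values. Just inside it, LOC_Os03g25010, a GDSL-like lipase, stood at 0.248 and 0.832 FPKM in the first leaf and 1.36 and 1.56 FPKM in the coleoptile. Just outside it, LOC_Os10g39950, annotated with a viral A-type inclusion protein repeat, stood at 0.706 and 0.849 FPKM in the first leaf and 1.19 and 1.26 FPKM in the coleoptile.

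The label of a green leaf was checked on photosynthetic genes. Photosystem and antenna genes were higher in it where they were called, while other photosynthetic groups held called genes of both directions or lower ones, and the coleoptile expressed most of them as well. No gene that defines the coleoptile was at hand to check the other label. Of 38 tested photosystem subunits, the proteins of the complexes that split water and move electrons, 11 were higher in the first leaf and 0 lower (median 0.79, with 7 and 0 without leaf 1, 6 and 0 without leaf 2, 2 and 0 without coleoptile 1, 4 and 0 without coleoptile 2, 3 and 0 with all 8). By mean level, 2 of the 11 higher subunits passed the filter through the leaf alone, which fixed their direction. LOC_Os07g05360, the 10 kDa polypeptide of photosystem II, stood at 190.3 and 146 FPKM in the first leaf, against 39.1 and 35.6 FPKM in the coleoptile, so the organs did not overlap (log2 difference 2.13 ± 0.20, limma adjusted p = 5.76e-04). In white light its levels were 338 and 102 FPKM in the first leaf and 6.52 and 34.6 FPKM in the coleoptile, and the call ended in the fit to all 8 libraries (adjusted p = 0.131). Of 17 chlorophyll a-b binding proteins, which carry the antenna pigments, 15 had positive differences and 2 were called higher (median 0.41, with 1 and 0 without leaf 2 or coleoptile 1 and with all 8, 0 and 0 without coleoptile 2). Of these LOC_Os02g52650 stood at 61.1 and 81.3 FPKM in the first leaf, against 27 and 22.9 FPKM in the coleoptile (1.47 ± 0.20), a call that ended without coleoptile replicate 2 (adjusted p = 0.0517). Together the 17 antenna genes held 3.56% and 3.84% of the summed FPKM of the first leaf libraries and 2.87% and 2.26% of the coleoptile libraries.

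Of the enzymes of carbon fixation, Rubisco led by level. Of 25 carbon fixation genes 7 were higher and 1 lower (median 0.26, with 4 and 0 without leaf 2, 2 and 0 without coleoptile 1, 1 and 0 without coleoptile 2, 7 and 0 with all 8). LOC_Os12g17600, a small chain of Rubisco, the enzyme that fixes carbon dioxide, stood at 4034 and 6214 FPKM in the first leaf, against 858 and 582 FPKM in the coleoptile (2.82 ± 0.42, adjusted p = 0.00383). Its call ended without coleoptile replicate 2 (adjusted p = 0.0616). A second small chain, LOC_Os12g19381, stood at 4635 and 6150.0 FPKM in the first leaf and 1732 and 1337 FPKM in the coleoptile, and its call ended without any 1 of the 4 libraries (adjusted p from 0.0963 to 0.186). Another, LOC_Os02g05830, ran the other way, at 152 and 98.7 FPKM in the first leaf, against 335 and 269 FPKM in the coleoptile (-1.28 ± 0.26, adjusted p = 0.0142). Its call ended without first leaf replicate 2 (adjusted p = 0.061), without coleoptile replicate 1 (adjusted p = 0.133), without coleoptile replicate 2 (adjusted p = 0.0794) and in the fit to all 8 libraries (adjusted p = 0.196). These copies are alike in sequence, so the split of reads between them is uncertain, while the sum over the 4 small chain loci was 1.38% and 1.89% of library FPKM in the first leaf and 0.501% and 0.414% in the coleoptile. Fructose-1,6-bisphosphatase LOC_Os01g64660, of the Calvin cycle and of sucrose synthesis, was 195 and 287 FPKM in the first leaf and 48.4 and 39.2 FPKM in the coleoptile (2.42 ± 0.24, adjusted p = 7.28e-04).

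Early light-induced proteins and 2 chlorophyll synthesis genes stood on the coleoptile side. Of 4 tested early light-induced proteins, which bind pigment in chloroplasts under excess light, 3 were lower in the first leaf, a call that held for each of the 3 without any 1 shaded library and in the fit to all 8. LOC_Os01g14410 stood at 31.3 and 27 FPKM in the first leaf, against 692 and 446 FPKM in the coleoptile (-4.21 ± 0.25, adjusted p = 8.99e-05). LOC_Os07g08150 stood at 18.6 and 16.1 FPKM in the first leaf, against 276 and 187 FPKM in the coleoptile (-3.64 ± 0.22). LOC_Os07g08160 stood at 12.3 and 9.81 FPKM in the first leaf, against 161 and 80.4 FPKM in the coleoptile (-3.26 ± 0.31). In white light LOC_Os07g08160 stood at 219 and 137 FPKM in the first leaf and 277 and 281 FPKM in the coleoptile, and the change of the organ difference with light was not called for any of the 3. Of 13 chlorophyll synthesis genes 0 were higher and 2 lower, protochlorophyllide reductase A (LOC_Os04g58200, -0.91 ± 0.25) and chlorophyllide a oxygenase (LOC_Os10g41780, -0.63 ± 0.18). The call of LOC_Os04g58200 ended without any 1 of the 4 libraries (adjusted p from 0.0513 to 0.253) and in the fit to all 8 libraries (adjusted p = 0.0672), and that of LOC_Os10g41780 without first leaf replicate 1 (adjusted p = 0.105), without coleoptile replicate 1 (adjusted p = 0.291), without coleoptile replicate 2 (adjusted p = 0.189) and in the fit to all 8 libraries (adjusted p = 0.281).

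Genes that build the plastid were called at or below the shares over all loci, 10.6% higher and 8.73% lower. Organelle ribosomal proteins lay nearest to them, at 10.3% higher and 3.45% lower. Of 29 plastid and mitochondrial ribosomal proteins 3 were higher and 1 lower (median 0.00, with 3 and 3 without leaf 1, 1 and 1 without coleoptile 2, 2 and 0 with all 8). The plastid-specific ribosomal protein LOC_Os03g63950 stood at 154 and 159.9 FPKM in the first leaf, against 77.3 and 63.9 FPKM in the coleoptile (1.15 ± 0.19), a call that ended without coleoptile replicate 2 (adjusted p = 0.0864). Of 210 pentatricopeptide repeat proteins, which process organelle transcripts, 3 were higher and 2 lower, shares below those over all loci (median 0.09, with 1 and 2 without leaf 2, 0 and 1 without coleoptile 1, 1 and 1 without coleoptile 2, 2 and 1 with all 8). Of 13 plastid import and division genes 1 was higher and 0 lower, the import component Toc159 (LOC_Os03g61890) at 8.69 and 11.4 FPKM in the first leaf, against 5.12 and 5.43 FPKM in the coleoptile (0.81 ± 0.20). The call of Toc159 ended without first leaf replicate 2 (adjusted p = 0.133), without coleoptile replicate 1 (adjusted p = 0.192) and without coleoptile replicate 2 (adjusted p = 0.172).

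The machinery of protein synthesis and cell division was called below the shares over all loci (10.6% higher, 8.73% lower). Cyclins lay nearest to them, at 9.52% higher and 4.76% lower. The short list of shoot meristem markers, given last, lay above the higher share, at 20% higher with 0 lower. Of 115 cytosolic ribosomal proteins 0 were higher and 2 lower, though 107 of them had negative differences (median -0.29, with 0 and 12 without leaf 1, 0 and 1 without leaf 2, 0 and 0 without coleoptile 1 or coleoptile 2 and with all 8). The sum over all loci of this list was 2.52% and 1.54% of library FPKM in the first leaf and 2.13% and 2.64% in the coleoptile. By that sum the organs overlapped. The ribosomal proteins called lower were L18a-1 (LOC_Os06g25294, -0.81 ± 0.18) and S10 (LOC_Os02g34460, -0.56 ± 0.16). The call of S10 ended without any 1 of the 4 libraries (adjusted p from 0.0569 to 0.27) and in the fit to all 8 libraries (adjusted p = 0.056), and that of L18a-1 without first leaf replicate 1 (adjusted p = 0.0599), without coleoptile replicate 1 (adjusted p = 0.182), without coleoptile replicate 2 (adjusted p = 0.0861) and in the fit to all 8 libraries (adjusted p = 0.103). Of 44 DNA replication genes limma called 0, with 1 at an unadjusted p under 0.05, and the median was 0.03. Of 44 core histones 1, LOC_Os06g45640 (0.78 ± 0.19), was higher and 0 were lower (median 0.12, with 0 and 5 without leaf 1, 12 and 0 without leaf 2, 0 and 0 without coleoptile 1 or coleoptile 2 and with all 8). The call of LOC_Os06g45640 ended without any 1 of the 4 libraries (adjusted p from 0.0664 to 0.232) and in the fit to all 8 libraries (adjusted p = 0.0564). Of 42 cyclins, which drive the cell cycle, 4 were higher and 2 lower (median 0.13, with 1 and 1 without leaf 1, 4 and 0 without leaf 2, 0 and 0 without coleoptile 1 or coleoptile 2, 2 and 0 with all 8). Of 76 kinesin and tubulin genes, the motors and tracks of the cytoskeleton, 6 were higher and 1 lower (median 0.08, with 2 and 0 without coleoptile 1 or coleoptile 2, 5 and 0 with all 8). Among the kinesins, LOC_Os08g43400 was 74.2 and 91.4 FPKM in the first leaf and 26.4 and 24.7 FPKM in the coleoptile (1.65 ± 0.18, adjusted p = 0.00102). Markers of the shoot meristem (knotted-type homeobox, CLAVATA) were 3 higher and 0 lower of 15 (median -0.05, with 1 and 0 without leaf 2, 0 and 1 without coleoptile 1, 0 and 0 without coleoptile 2).

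Genes that pattern lateral organs were called in both directions, as were tested loci at large (10.6% higher and 8.73% lower). Most of these lists are small, and none was tested against those shares. Of 7 YABBY genes, a family of transcription factors tied to the lower side of leaves and to organ growth, 1 was higher and 1 lower. LOC_Os12g42610 stood at 46.8 and 70 FPKM in the first leaf, against 434 and 371 FPKM in the coleoptile (-2.79 ± 0.24, adjusted p = 4.42e-04), with a wide gap between the organs. LOC_Os03g11600 stood at 7.39 and 2.95 FPKM in the first leaf, against 0.256 and 0.196 FPKM in the coleoptile, and its call ended without coleoptile replicate 1 (adjusted p = 0.0502) and without coleoptile replicate 2 (adjusted p = 0.0594). Of 71 homeobox genes 12 were higher and 8 lower (median 0.25, with 6 and 10 without leaf 2, 6 and 4 without coleoptile 1, 1 and 6 without coleoptile 2, 7 and 4 with all 8). Of these LOC_Os03g03260 stood at 8.83 and 11.6 FPKM in the first leaf, against 1.66 and 0.904 FPKM in the coleoptile (2.31 ± 0.25). LOC_Os02g13310 stood at 3.55 and 2.18 FPKM in the first leaf, against 22.7 and 22.9 FPKM in the coleoptile (-2.65 ± 0.22). TCP genes, which limit or prolong cell division in leaves, were 2 higher and 1 lower of 14 (median 0.09, with 4 and 0 without leaf 2, 1 and 0 without coleoptile 1 or coleoptile 2 and with all 8), led by LOC_Os02g51280 at 14.9 and 7.88 FPKM in the first leaf and 2.11 and 2.43 FPKM in the coleoptile (1.86 ± 0.29). Its call ended without coleoptile replicate 1 (adjusted p = 0.0594) and without coleoptile replicate 2 (adjusted p = 0.0527). SBP-box genes were 2 higher (OsSPL8, LOC_Os04g56170, 0.94 ± 0.20, and OsSPL2, LOC_Os01g69830, 0.97 ± 0.20) and 0 lower of 16 (median 0.14, with 0 and 0 without leaf 1 or coleoptile 2, 1 and 0 without leaf 2 or coleoptile 1 and with all 8). The call of OsSPL8 ended without first leaf replicate 1 (adjusted p = 0.0786), without coleoptile replicate 1 (adjusted p = 0.096) and without coleoptile replicate 2 (adjusted p = 0.147), and that of OsSPL2 without first leaf replicate 1 (adjusted p = 0.0707), without first leaf replicate 2 (adjusted p = 0.0585), without coleoptile replicate 2 (adjusted p = 0.157) and in the fit to all 8 libraries (adjusted p = 0.131). Growth-regulating factors and their partners were 0 higher and 1 lower of 13 (median -0.48, with 0 and 3 without leaf 1, 0 and 0 without leaf 2 or coleoptile 1 or coleoptile 2 and with all 8). The lower was LOC_Os06g02560 (-0.70 ± 0.18), and its call ended without any 1 of the 4 libraries (adjusted p from 0.0833 to 0.271) and in the fit to all 8 libraries (adjusted p = 0.119).

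LOC_Os08g13440, a cupin domain protein, stood at 158 and 172 FPKM in the first leaf, against 0.778 and 1.78 FPKM in the coleoptile (6.22 ± 0.23, adjusted p = 1.41e-05), the largest positive difference of all tested loci. The lipid transfer protein LTPL114 (LOC_Os03g01300), of a family of small secreted proteins that bind lipids, was 203 and 177 FPKM in the first leaf and 5.9 and 1.59 FPKM in the coleoptile (5.49 ± 0.41). LTPL110 (LOC_Os12g28880), of the same family, was 97.5 and 145 FPKM in the first leaf and 2.99 and 1.5 FPKM in the coleoptile (5.25 ± 0.28). In all 3 the organs were far apart and did not overlap.

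LOC_Os05g28740, with a universal stress protein domain, stood at 78.4 and 84.2 FPKM in the first leaf, against 1.21 and 1.04 FPKM in the coleoptile (5.28 ± 0.17, adjusted p = 8.79e-06). In white light it stood at 15.1 and 24.6 FPKM in the first leaf and 9.85 and 3.74 FPKM in the coleoptile, and the change of the organ difference with light was not called. The helix-loop-helix gene LOC_Os01g72370, of a family of transcription factors, was 51.6 and 80.9 FPKM in the first leaf and 0.963 and 2.4 FPKM in the coleoptile (4.67 ± 0.31). Others of the 10 highest among loci with an annotated function were a SAM dependent carboxyl methyltransferase (LOC_Os06g20920, 4.30 ± 0.28), a cysteine protease (LOC_Os03g54130, 4.19 ± 0.23), a cytochrome P450 (LOC_Os10g23180, 4.0 ± 0.20), a BURP domain protein (LOC_Os11g06980, 3.96 ± 0.28) and a peroxidase (LOC_Os07g48020, 3.90 ± 0.21). By level, the most abundant called higher besides Rubisco was an AAA-type ATPase, LOC_Os11g47970, at 1857 and 2883 FPKM in the first leaf and 698 and 592 FPKM in the coleoptile (1.85 ± 0.36), whose call ended without first leaf replicate 2 (adjusted p = 0.0614), without coleoptile replicate 1 (adjusted p = 0.0839) and without coleoptile replicate 2 (adjusted p = 0.115).

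The coleoptile side was led by genes that were nearly silent in the leaf. LOC_Os02g37490, a glycine-rich cell wall structural protein, was listed at 0 in both first leaf libraries, against 2298 and 2189 FPKM in the coleoptile. LOC_Os03g52860, a lipoxygenase, of the family of enzymes that add oxygen to unsaturated fatty acids, stood at 0.294 and 0.381 FPKM in the first leaf, against 896 and 1037 FPKM in the coleoptile (-9.49 ± 0.17, adjusted p = 3.21e-07). A hydrolase, LOC_Os03g62060, was 0.0366 and 0.0446 FPKM in the first leaf and 516 and 492 FPKM in the coleoptile (-8.92 ± 0.16). An O-methyltransferase, LOC_Os11g20090, was listed at 0 in both first leaf libraries and stood at 249 and 207 FPKM in the coleoptile. The organs were far apart in all 4 of these genes in white light as in shade. There the lipoxygenase was 0.55 and 0.396 FPKM in the white light first leaf and 575 and 1072 FPKM in the white light coleoptile.

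**Figure D2:**
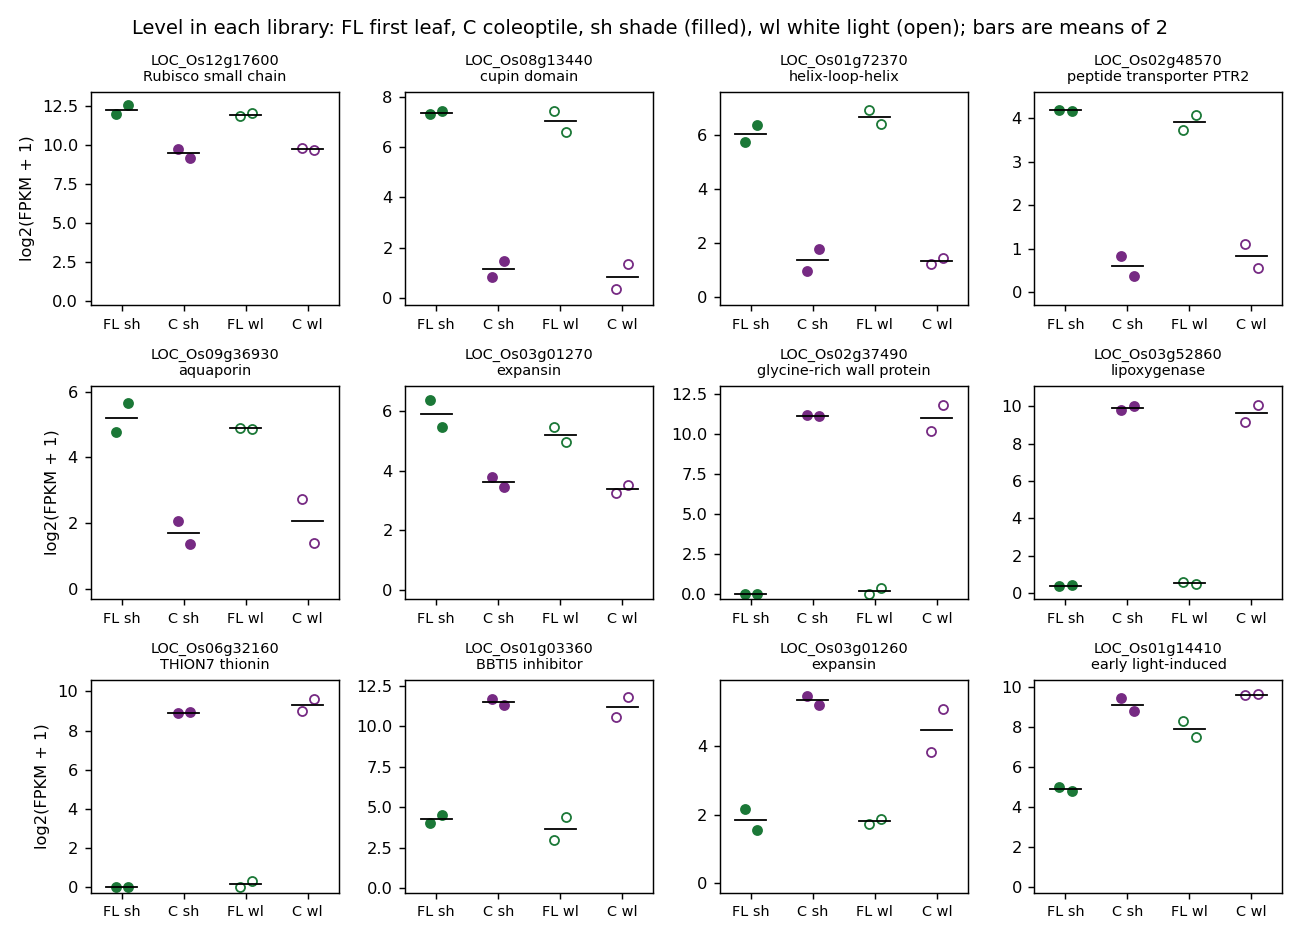
Level of 12 named loci in each library, as log2(FPKM + 1), with first leaf libraries in green, coleoptile libraries in purple, shade as filled and white light as open circles, and bars at the mean of 2 libraries. The first 6 loci are higher in the shaded first leaf and the last 6 lower, and in each of the 12 the shaded first leaf and shaded coleoptile points do not overlap.

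Antimicrobial peptides, protease inhibitors and lectins were among the most abundant transcripts called lower in the leaf. The families in this and the next paragraph were gathered after their leading members had been seen, and their sums hold several near-identical copies whose single values are uncertain. Of 15 tested thionins, small cysteine-rich antimicrobial peptides, 11 were lower in the first leaf and 1 was higher, and the 48 loci of the family summed to 0.0123% and 0.0182% of library FPKM in the first leaf and 0.579% and 0.718% in the coleoptile. THION7 (LOC_Os06g32160) was listed at 0 in both first leaf libraries, against 471 and 494 FPKM in the coleoptile, and THION6 (LOC_Os06g32020) was listed at 0 there as well, against 438 and 393 FPKM. THION2, THION3, THION5, THION9 and THION16, also called lower, were listed at 0 in both first leaf libraries too. All of these THION genes passed the filter through the coleoptile alone, which fixed their direction. Of 9 Bowman-Birk inhibitors, which block trypsin-like proteases, 6 were lower and 1 higher, and the family held 0.0419% and 0.0543% in the first leaf and 1.09% and 0.951% in the coleoptile. BBTI5 (LOC_Os01g03360) stood at 15.2 and 21.6 FPKM in the first leaf, against 3329 and 2549.8 FPKM in the coleoptile (-7.25 ± 0.26, adjusted p = 1.06e-05). All 5 tested inhibitor I family proteins were lower, led by LOC_Os12g36240 at 79.1 and 52.3 FPKM in the first leaf and 6693 and 4599.9 FPKM in the coleoptile (-6.41 ± 0.33).

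Single loci held much of the coleoptile signal of other families. The jacalin-like lectin LOC_Os01g24710, of a group of carbohydrate-binding proteins, stood at 203 and 248 FPKM in the first leaf, against 8625 and 7299.9 FPKM in the coleoptile (-5.14 ± 0.33, adjusted p = 1.37e-04). The 22 lectin loci of that name held 0.107% and 0.109% of library FPKM in the first leaf and 1.18% and 1.1% in the coleoptile. The BURP domain gene LOC_Os05g12640 stood at 327 and 501 FPKM in the first leaf, against 9719 and 6727 FPKM in the coleoptile (-4.32 ± 0.41, adjusted p = 6.51e-04). It is the most abundant of the loci called lower, and other BURP domain genes were called higher, 3 in each direction of 8 tested. The ribonuclease T2 gene LOC_Os09g36700, of a family of secreted and vacuolar RNA-degrading enzymes, was 694 and 1098 FPKM in the first leaf and 5695 and 4073 FPKM in the coleoptile (-2.46 ± 0.43). Its call ended without first leaf replicate 1 (adjusted p = 0.109), without first leaf replicate 2 (adjusted p = 0.0512) and without coleoptile replicate 1 (adjusted p = 0.0627).

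Markers of other tissues were looked for in the same libraries. Of the 96 loci annotated as seed storage or late embryogenesis proteins, 25 passed the filter, of which 16 were lower in the first leaf and 1 higher (median -1.49, with 2 and 15 without leaf 1, 0 and 12 without coleoptile 1 or coleoptile 2, 0 and 13 with all 8). Their sum was 0.0866% and 0.105% of library FPKM in the first leaf and 0.265% and 0.232% in the coleoptile. Most of the members that moved were late embryogenesis proteins, which protect cells that dry out, such as LOC_Os05g46480 at 0.0713 and 0.626 FPKM in the first leaf, against 158 and 125 FPKM in the coleoptile (-6.74 ± 0.24, adjusted p = 1.20e-05). Of 43 glutelin and prolamin loci, the defining storage proteins of the grain, 1 passed the filter and it was not called (-0.02). All 43 together held at most 0.000289% of a shaded library. Of 10 loci annotated with root-type terms 4 passed, all of a root cap and late embryogenesis family that the seed list also holds, and 3 of them were lower. These 3 averaged under 1 FPKM in the first leaf and passed the filter through the coleoptile alone, which fixed their direction, and so did 8 of the 16 lower seed loci. One of the 3, LOC_Os01g73730, stood at 0 and 0.0535 FPKM in the first leaf, against 2.35 and 3.67 FPKM in the coleoptile (-1.95 ± 0.26). The part of seed-type or root-type cells in the other differences was not tested. In bulk RNA, fewer cells of a type and less RNA per cell cannot be told apart, here or in any comparison that follows.

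**Figure D3:**
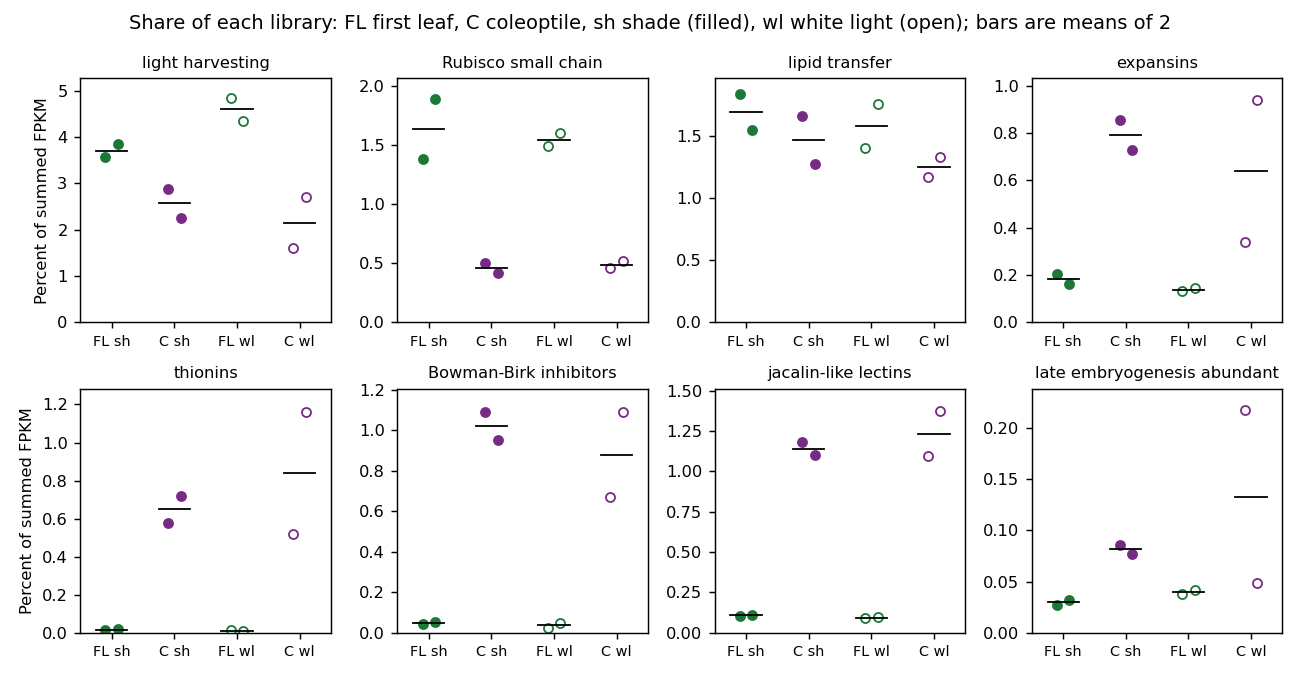
Share of each library's summed FPKM held by 8 gene families, with first leaf libraries in green, coleoptile libraries in purple, shade as filled and white light as open circles, and bars at the mean of 2 libraries. Light harvesting and Rubisco small chain genes take more of every first leaf library, while thionins, Bowman-Birk inhibitors and jacalin-like lectins take more of every coleoptile library.

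Genes of the cell wall were called in both directions, often as neighbouring or related copies. Expansins loosen the wall of growing cells, and of 28 tested 4 were higher and 12 lower (median -0.38, with 2 and 11 without coleoptile 1, 2 and 10 without coleoptile 2). Their sum was 0.203% and 0.162% of library FPKM in the first leaf and 0.855% and 0.728% in the coleoptile. LOC_Os10g40700 stood at 52.6 and 51.6 FPKM in the first leaf, against 1145 and 912 FPKM in the coleoptile (-4.27 ± 0.22, adjusted p = 4.65e-05). LOC_Os05g39990 stood at 98.2 and 69.5 FPKM in the first leaf, against 1182 and 802 FPKM in the coleoptile (-3.54 ± 0.28). Expansins that neighbour one another went opposite ways in places. LOC_Os03g01260 was 3.45 and 1.89 FPKM in the first leaf and 43.6 and 36.5 FPKM in the coleoptile (-3.51 ± 0.24, adjusted p = 1.77e-04). The next locus, LOC_Os03g01270, was 81.2 and 43.2 FPKM in the first leaf and 12.9 and 9.96 FPKM in the coleoptile (2.29 ± 0.30, adjusted p = 0.00218).

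Enzymes that build and remodel wall sugars were divided as well. Of 29 glycosyl hydrolases of family 16, which cut and rejoin xyloglucan, 6 were higher and 8 lower (median 0.36, with 3 and 6 without leaf 1, 2 and 6 without coleoptile 1 or coleoptile 2). LOC_Os06g48180 stood at 47.4 and 52.6 FPKM in the first leaf, against 11.4 and 5.03 FPKM in the coleoptile (2.56 ± 0.32). LOC_Os10g39840 stood at 10.8 and 6.96 FPKM in the first leaf, against 67.6 and 46.8 FPKM in the coleoptile (-2.56 ± 0.26). Of 33 cellulose synthase and related genes 5 were higher and 7 lower (median 0.00, with 3 and 7 without leaf 1, 2 and 5 without leaf 2, 1 and 6 without coleoptile 1 and with all 8, 0 and 5 without coleoptile 2). CSLA1 (LOC_Os02g09930), annotated as a mannan synthase, stood at 56.5 and 33.5 FPKM in the first leaf, against 229.8 and 226 FPKM in the coleoptile (-2.36 ± 0.26, adjusted p = 0.0011). CESA4 (LOC_Os01g54620), a cellulose synthase of secondary walls, was 133 and 168 FPKM in the first leaf and 81.1 and 60.9 FPKM in the coleoptile (1.08 ± 0.22), a call that ended without first leaf replicate 2 (adjusted p = 0.0594), without coleoptile replicate 1 (adjusted p = 0.0563), without coleoptile replicate 2 (adjusted p = 0.153) and in the fit to all 8 libraries (adjusted p = 0.0583). CSLF3 (LOC_Os07g36750), of the family that makes mixed-linkage glucan, was listed at 0 in both first leaf libraries and stood at 3.14 and 4.36 FPKM in the coleoptile, and it was listed at 0 in all 4 white light libraries.

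Of 72 pectin genes 15 were higher and 9 lower (median 0.17, with 7 and 8 without leaf 1, 5 and 6 without coleoptile 1 or coleoptile 2, 7 and 6 with all 8). A polygalacturonase, LOC_Os03g03350, which cuts pectin, was 19.2 and 18.3 FPKM in the first leaf and 3.95 and 2.1 FPKM in the coleoptile (2.33 ± 0.25). A polygalacturonase inhibitor, LOC_Os05g01380, was 0.699 and 0.792 FPKM in the first leaf and 20.5 and 17.7 FPKM in the coleoptile (-3.52 ± 0.19). Of 92 structural wall proteins, such as glycine-rich, proline-rich, extensin-like and fasciclin proteins, 16 were higher and 18 lower (median -0.10, with 9 and 16 without leaf 1, 9 and 17 without leaf 2, 8 and 14 without coleoptile 1 and with all 8, 4 and 16 without coleoptile 2). By mean level, 11 of the 18 lower passed the filter through the coleoptile alone and 1 of the 16 higher through the leaf alone. That fixed their direction. The fasciclin protein LOC_Os02g20560 was 130.4 and 118 FPKM in the first leaf and 29.3 and 15.6 FPKM in the coleoptile (2.48 ± 0.28), on the other side from the glycine-rich LOC_Os02g37490.

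More lignin genes were higher than lower in the leaf, and more peroxidases were lower than higher. Of 65 genes of monolignol synthesis and coupling, 23 were higher and 8 lower (median 0.44, with 14 and 6 without leaf 1, 15 and 7 without leaf 2, 10 and 7 without coleoptile 2, 12 and 6 with all 8). Of these, 5 of the 23 higher passed the filter through the leaf alone and 4 of the 8 lower through the coleoptile alone, which fixed their direction. The laccase LOC_Os01g63190, of a family that oxidises monolignols, stood at 44.7 and 69.3 FPKM in the first leaf, against 7.26 and 3.58 FPKM in the coleoptile (3.20 ± 0.32, adjusted p = 7.61e-04). Cinnamoyl-CoA reductase LOC_Os09g25150, of the entry to monolignols, was 56.9 and 77.6 FPKM in the first leaf and 7.43 and 6.23 FPKM in the coleoptile (3.11 ± 0.20). Those lower were led by dirigent proteins, which guide the coupling of phenolic radicals, such as LOC_Os03g59440 at 0.0765 and 0 FPKM in the first leaf, against 21.8 and 31.4 FPKM in the coleoptile (-4.71 ± 0.23). Another dirigent protein, LOC_Os10g18820, had 7.39 and 4.76 FPKM in the first leaf and was listed at 0 in both coleoptile libraries. Of 86 peroxidases 18 were higher and 26 lower (median -0.30, with 10 and 18 without coleoptile 2). Among the peroxidases, 4 of the 18 higher passed the filter through the leaf alone and 9 of the 26 lower through the coleoptile alone. The peroxidase LOC_Os03g32050 was 2.78 and 2.07 FPKM in the first leaf and 57.2 and 44 FPKM in the coleoptile (-3.91 ± 0.21). The highest in the leaf, LOC_Os07g48020, was 36 and 29.6 FPKM in the first leaf and 1.52 and 1.01 FPKM in the coleoptile.

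Surface lipid genes showed the same division. Of 105 wax, cutin and GDSL lipase genes 17 were higher and 25 lower (median -0.14, with 10 and 22 without leaf 1, 11 and 12 without coleoptile 1, 5 and 17 without coleoptile 2). By mean level, 3 of the 17 higher passed the filter through the leaf alone and 6 of the 25 lower through the coleoptile alone. That fixed their direction. The 3-ketoacyl-CoA synthase LOC_Os04g02640, of the enzymes that lengthen fatty acids for wax, stood at 0.555 and 0.376 FPKM in the first leaf, against 42 and 31.8 FPKM in the coleoptile (-4.68 ± 0.21, adjusted p = 2.71e-05). Its relative LOC_Os06g15170 was 9.28 and 10.1 FPKM in the first leaf and 1.95 and 0.735 FPKM in the coleoptile (2.24 ± 0.28). The GDSL lipase LOC_Os01g11730 was far more abundant, at 66.3 and 73.1 FPKM in the first leaf and 1293 and 1273 FPKM in the coleoptile (-4.18 ± 0.21). Of 88 lipid transfer proteins 26 were higher and 17 lower (median 0.31, with 17 and 12 without leaf 1, 20 and 9 without leaf 2, 16 and 13 without coleoptile 1, 10 and 12 without coleoptile 2, 16 and 12 with all 8). Here 2 of the 26 higher passed the filter through the leaf alone and 5 of the 17 lower through the coleoptile alone. The direction of these was fixed as well. LTPL140 (LOC_Os10g40440) was listed at 0 in both first leaf libraries, against 40.8 and 57.8 FPKM in the coleoptile, beside LTPL114 and LTPL110 above on the leaf side.

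**Figure D4:**
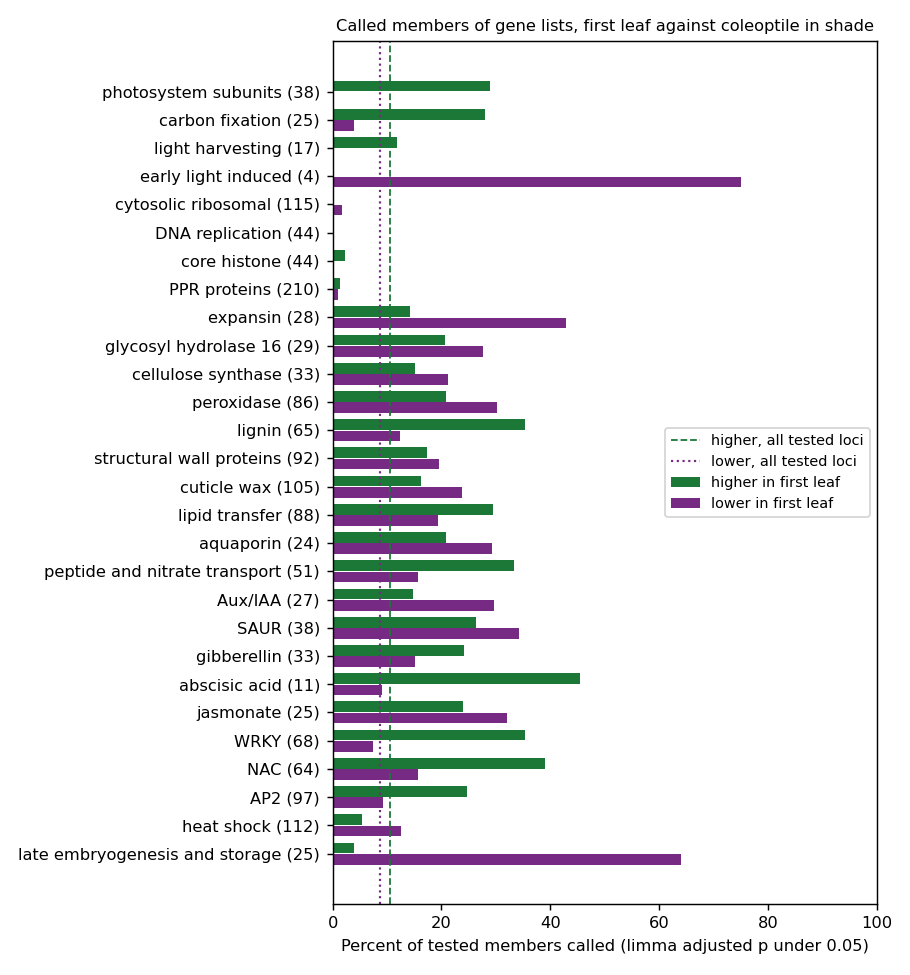
Percent of the tested members of 28 gene lists called higher (green) and lower (purple) in the shaded first leaf than in the shaded coleoptile, with the number tested in brackets and the shares over all tested loci, 10.6% and 8.73%, as dashed and dotted lines. Abscisic acid, NAC, lignin, WRKY, peptide and nitrate transport, lipid transfer and photosystem lists have the longest green bars, in that order. Early light-induced, late embryogenesis and expansin lists have the longest purple bars, and ribosomal, replication, histone and pentatricopeptide lists have bars below both lines.

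Transport genes were divided between the organs by copy. Aquaporins are channels for water, and of 24 tested 5 were higher and 7 lower (median -0.36, with 3 and 7 without coleoptile 1, 3 and 6 without coleoptile 2). LOC_Os09g36930 stood at 26 and 49.7 FPKM in the first leaf, against 3.17 and 1.57 FPKM in the coleoptile (3.5 ± 0.34, adjusted p = 7.28e-04). LOC_Os05g14240 stood at 295 and 302 FPKM in the first leaf, against 85.4 and 43.3 FPKM in the coleoptile (2.28 ± 0.31). Among the 7 lower, LOC_Os01g74450 stood at 1.0 and 5.26 FPKM in the first leaf, against 155 and 71.5 FPKM in the coleoptile (-4.91 ± 0.54, adjusted p = 0.00117), with leaf replicates over 5 times apart and still below both coleoptile values. Of 51 loci annotated as peptide or nitrate transporters or as enzymes of nitrate reduction, 17 were higher and 8 lower (median 0.05, with 19 and 5 without leaf 1, 8 and 3 without coleoptile 1, 7 and 4 without coleoptile 2). By mean level, 7 of the 17 higher passed the filter through the leaf alone and 1 of the 8 lower through the coleoptile alone. That fixed their direction. The peptide transporter LOC_Os02g48570 was 17.3 and 17 FPKM in the first leaf and 0.772 and 0.30 FPKM in the coleoptile (3.58 ± 0.22). Another, LOC_Os01g68510, was 9.17 and 11.5 FPKM in the first leaf and 0.229 and 0.113 FPKM in the coleoptile (3.27 ± 0.22).

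Sugar, protease and phenolic metabolism gave calls both ways. Of 49 sugar and starch genes 7 were higher and 3 lower (median 0.09, with 2 and 2 without leaf 2, 2 and 0 without coleoptile 1, 2 and 1 without coleoptile 2, 4 and 2 with all 8). Beta-amylase LOC_Os03g04770, which releases maltose from starch, was 27.6 and 47.4 FPKM in the first leaf and 155 and 109 FPKM in the coleoptile (-1.82 ± 0.29), and its call ended without coleoptile replicate 1 (adjusted p = 0.066). Of 11 loci listed under alcoholic fermentation 0 were higher and 1 lower. The lower, LOC_Os04g32010 (-3.10 ± 0.23), is annotated with a thiamine pyrophosphate binding domain, which does not by itself name a fermentation enzyme. This locus averaged under 1 FPKM in the first leaf and passed the filter through the coleoptile alone, which fixed its direction. Of 101 protease and senescence genes 21 were higher and 13 lower (median 0.17, with 12 and 2 without coleoptile 1, 9 and 6 without coleoptile 2, 13 and 6 with all 8). The vacuolar processing enzyme LOC_Os01g37910, a protease that matures proteins in the vacuole, stood at 80.8 and 86.1 FPKM in the first leaf, against 12.1 and 12.1 FPKM in the coleoptile (2.69 ± 0.16, adjusted p = 8.59e-05). The subtilisin OsSub12 (LOC_Os02g10520) was 2.96 and 4.77 FPKM in the first leaf and 26.3 and 31.6 FPKM in the coleoptile (-2.64 ± 0.23). Of 64 flavonoid genes 16 were higher and 14 lower (median 0.14, with 8 and 11 without leaf 2, 10 and 7 without coleoptile 1, 6 and 7 without coleoptile 2, 7 and 11 with all 8). Chalcone synthase LOC_Os11g32650, the first enzyme of flavonoid synthesis, was 409.6 and 511 FPKM in the first leaf and 105 and 65.4 FPKM in the coleoptile (2.45 ± 0.27). A flavonol sulfotransferase, LOC_Os08g20130, was 2.68 and 5.16 FPKM in the first leaf and 68.4 and 63.4 FPKM in the coleoptile (-3.81 ± 0.25).

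Auxin genes differed in a copy-specific way. Of 27 Aux/IAA genes, repressors of auxin response that auxin itself induces, 4 were higher and 8 lower (median 0.03, with 2 and 8 without leaf 2, 1 and 5 without coleoptile 1 or coleoptile 2, 3 and 5 with all 8). OsIAA18 (LOC_Os05g44810) stood at 9.79 and 15.5 FPKM in the first leaf, against 114 and 128 FPKM in the coleoptile (-3.19 ± 0.23, adjusted p = 2.02e-04). OsIAA12 (LOC_Os03g43410) stood at 16.7 and 17.7 FPKM in the first leaf, against 122 and 160.3 FPKM in the coleoptile (-2.95 ± 0.19). OsIAA10 (LOC_Os02g57250) went the other way, at 118 and 109 FPKM in the first leaf, against 34.6 and 31.9 FPKM in the coleoptile (1.74 ± 0.17). The organs overlapped in none of the 3. Of 38 SAUR genes, small early auxin-induced transcripts, 10 were higher and 13 lower (median -0.26, with 5 and 7 without coleoptile 1, 4 and 4 without coleoptile 2, 5 and 6 with all 8). OsSAUR58 (LOC_Os12g43110) was 15.8 and 16 FPKM in the first leaf and 0.446 and 0.847 FPKM in the coleoptile (3.37 ± 0.21). OsSAUR33 (LOC_Os08g35110) was 11 and 4.67 FPKM in the first leaf and 62.9 and 58.8 FPKM in the coleoptile (-2.91 ± 0.32).

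Auxin response factors, carriers, GH3 enzymes and flavin-containing monooxygenases were 8 higher and 15 lower of 62 (median -0.03, with 6 and 9 without leaf 1, 9 and 8 without leaf 2, 5 and 7 without coleoptile 1, 4 and 5 without coleoptile 2, 6 and 5 with all 8). Of the monooxygenases, a family that includes enzymes of auxin synthesis, LOC_Os07g02130 stood at 0 and 0.0512 FPKM in the first leaf, against 12.8 and 9.72 FPKM in the coleoptile (-3.57 ± 0.23). OsGH3.3 (LOC_Os01g12160), of a family of enzymes that join hormones to amino acids, stood at 13.4 and 18.3 FPKM in the first leaf, against 2.51 and 1.69 FPKM in the coleoptile (2.44 ± 0.23).

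Gibberellin genes went both ways, and most of the called loci of the abscisic acid list were higher in the leaf. Of 33 gibberellin genes 8 were higher and 5 lower (median 0.24, with 4 and 2 without coleoptile 1, 5 and 3 without coleoptile 2, 5 and 2 with all 8). Copies of gibberellin 20 oxidase 2, which makes the precursors of active gibberellin, ran both ways. LOC_Os08g44590 stood at 11.2 and 7.7 FPKM in the first leaf, against 0.308 and 0.531 FPKM in the coleoptile (2.86 ± 0.24, adjusted p = 4.12e-04). LOC_Os01g66100 stood at 2.55 and 2.65 FPKM in the first leaf, against 14.5 and 14.3 FPKM in the coleoptile (-2.10 ± 0.18, adjusted p = 4.06e-04). In white light LOC_Os01g66100 stood at 0.696 and 0.807 FPKM in the first leaf and 1.88 and 3.35 FPKM in the coleoptile. Of 11 abscisic acid genes 5 were higher and 1 lower (median 0.95, with 5 and 0 without leaf 1 or coleoptile 1, 4 and 0 with all 8). Among the higher, LOC_Os01g73250 (3.57 ± 0.34) and LOC_Os02g33820 (2.28 ± 0.24) are annotated as abscisic stress-ripening and not as enzymes of synthesis. By mean level, 2 of the 5 higher passed the filter through the leaf alone and the 1 lower through the coleoptile alone. That fixed their direction. LOC_Os02g47510, a 9-cis-epoxycarotenoid dioxygenase, which commits carotenoids to abscisic acid synthesis, stood at 12.3 and 25.4 FPKM in the first leaf, against 1.74 and 0.721 FPKM in the coleoptile (3.11 ± 0.36, adjusted p = 0.00146). Of 2 other copies called, LOC_Os12g24800, which the naming rule does not pick, was higher (2.09 ± 0.28) and LOC_Os07g05940 lower, at 0.104 and 0.379 FPKM in the first leaf and 4.05 and 1.92 FPKM in the coleoptile (-1.64 ± 0.32). The call of LOC_Os07g05940 ended without first leaf replicate 1 (adjusted p = 0.059), without coleoptile replicate 1 (adjusted p = 0.0547) and in the fit to all 8 libraries (adjusted p = 0.305).

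Ethylene, cytokinin and jasmonate lists held calls in both directions. Of 26 ethylene genes 5 were higher and 5 lower (median 0.07, with 4 and 3 without leaf 1, 2 and 1 without coleoptile 1, 3 and 1 without coleoptile 2), 9 of the 10 annotated as 1-aminocyclopropane-1-carboxylate oxidases, the last enzyme of ethylene synthesis, or homologs. Among them LOC_Os02g53180 was 270.2 and 194 FPKM in the first leaf and 55.2 and 41.6 FPKM in the coleoptile (2.23 ± 0.24). LOC_Os03g63900 was 28.9 and 31.9 FPKM in the first leaf and 87.4 and 71.6 FPKM in the coleoptile (-1.35 ± 0.18). Of 35 cytokinin genes and response regulators 7 were higher and 10 lower (median -0.04, with 3 and 10 without leaf 2, 2 and 5 without coleoptile 1, 1 and 7 without coleoptile 2, 4 and 7 with all 8). LOC_Os04g25440, a cytokinin-O-glucosyltransferase, of enzymes that store the hormone as a sugar conjugate, was 20.6 and 31.8 FPKM in the first leaf and 195 and 165 FPKM in the coleoptile (-2.76 ± 0.23). Of 25 jasmonate genes 6 were higher and 8 lower (median 0.24, with 5 and 5 without leaf 2, 2 and 6 without coleoptile 1, 2 and 4 without coleoptile 2 and with all 8), the lipoxygenase LOC_Os03g52860 above being the lowest. Of the 8 lower jasmonate genes 4 passed the filter through the coleoptile alone, which fixed their direction, and 0 of the 6 higher through the leaf alone. The 12-oxophytodienoate reductase LOC_Os06g11260, of jasmonate synthesis, was 0.184 and 0 FPKM in the first leaf and 6.07 and 6.21 FPKM in the coleoptile (-2.71 ± 0.22), and its call ended in the fit to all 8 libraries (adjusted p = 0.0564).

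Light signalling genes differed by family. Phytochromes A, B and C, the receptors of red and far-red light, were not called. Phytochrome A (LOC_Os03g51030) stood at 19.8 and 24.3 FPKM in the first leaf and 24.6 and 32.3 FPKM in the coleoptile (-0.35 ± 0.20, adjusted p = 0.287). Phytochrome B (LOC_Os03g19590) stood at 17 and 22 FPKM in the first leaf and 14.7 and 13.9 FPKM in the coleoptile (0.41 ± 0.19, adjusted p = 0.181). Phytochrome C (LOC_Os03g54084) stood at 17.2 and 21.5 FPKM in the first leaf and 15.5 and 15.4 FPKM in the coleoptile (0.30 ± 0.18, adjusted p = 0.312). For none of the 3 does the missed threshold show equal levels. Across the list of photoreceptor and NPH3 genes 3 of 37 were higher and 8 lower (median 0.13, with 1 and 3 without coleoptile 1, 1 and 2 without coleoptile 2). NPH3-type proteins act below the phototropins in bending towards light. LOC_Os01g08140 of that type was 7.58 and 9.11 FPKM in the first leaf and 35.2 and 25.5 FPKM in the coleoptile (-1.73 ± 0.21). BTBN5 (LOC_Os03g10880) was 18 and 20.2 FPKM in the first leaf and 4.42 and 4.34 FPKM in the coleoptile (1.90 ± 0.17). Of 34 B-box and CCT genes 7 were higher and 6 lower (median 0.00, with 4 and 7 without leaf 2, 1 and 2 without coleoptile 1 or coleoptile 2), with LOC_Os06g49880 at 4.44 and 8.2 FPKM in the first leaf and 25.8 and 28.3 FPKM in the coleoptile (-1.99 ± 0.26).

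In 3 transcription factor families tied to stress and defence, more genes were higher than lower in the leaf. Of 68 WRKY genes 24 were higher and 5 lower (median 0.44, with 12 and 2 without coleoptile 1, 12 and 3 without coleoptile 2, 7 and 4 with all 8). Of 64 NAC genes 25 were higher and 10 lower (median 0.37, with 15 and 10 without leaf 2, 12 and 6 without coleoptile 1, 10 and 9 without coleoptile 2, 13 and 7 with all 8). Of 97 AP2 genes 24 were higher and 9 lower (median 0.03, with 13 and 4 without coleoptile 1, 13 and 6 without coleoptile 2, 9 and 7 with all 8). Among the higher genes, 6 WRKY, 4 NAC and 7 AP2 passed the filter through the leaf alone by mean level. Among the lower, 1 WRKY, 2 NAC and 3 AP2 passed it through the coleoptile alone. That fixed the direction of these genes, WRKY28 below included. In white light the medians of the WRKY, NAC and AP2 lists were -0.39, -0.18 and -0.27. WRKY108 (LOC_Os01g60600) stood at 19.1 and 21.1 FPKM in the first leaf, against 1.94 and 1.87 FPKM in the coleoptile (2.86 ± 0.18, adjusted p = 1.21e-04). In white light it stood at 22.9 and 15.9 FPKM in the first leaf and 106 and 10.4 FPKM in the coleoptile. WRKY28 (LOC_Os06g44010) was 8.67 and 11.9 FPKM in the first leaf and 0.697 and 0.63 FPKM in the coleoptile (2.75 ± 0.22). In white light it was 11.2 and 2.65 FPKM in the first leaf and 174 and 26 FPKM in the coleoptile. Both calls ended in the fit to all 8 libraries (adjusted p = 0.0848 for WRKY108 and 0.0933 for WRKY28).

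Other members of these families stood apart in both lights, without overlap of the organs in either. The NAC gene LOC_Os09g33490 stood at 26.1 and 34.2 FPKM in the first leaf, against 3.6 and 2.45 FPKM in the coleoptile (2.95 ± 0.22, adjusted p = 2.43e-04). In white light it stood at 26.6 and 31.9 FPKM in the first leaf and 3.89 and 2.33 FPKM in the coleoptile. The NAC gene LOC_Os02g36880 was 9.42 and 12.4 FPKM in the first leaf and 88.3 and 74.5 FPKM in the coleoptile (-2.80 ± 0.19). The AP2 gene LOC_Os12g41060 was 12.3 and 8.94 FPKM in the first leaf and 0.963 and 0.698 FPKM in the coleoptile (2.65 ± 0.23). Of 163 MYB genes 30 were higher and 15 lower (median 0.11, with 20 and 9 without leaf 2, 15 and 4 without coleoptile 1, 12 and 6 without coleoptile 2, 17 and 8 with all 8). LOC_Os09g36250 of that family was 32.3 and 47.1 FPKM in the first leaf and 5.18 and 4.34 FPKM in the coleoptile (2.80 ± 0.22). Of 71 helix-loop-helix genes 12 were higher and 12 lower (median 0.16, with 9 and 7 without leaf 2, 6 and 6 without coleoptile 1, 6 and 5 without coleoptile 2, 4 and 9 with all 8).

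Of 112 heat shock genes 6 were higher and 14 lower, and 74 had negative differences (median -0.12, with 7 and 3 without leaf 2, 3 and 1 without coleoptile 1, 3 and 3 without coleoptile 2, 5 and 6 with all 8). The DnaK chaperone LOC_Os03g16860 stood at 47.2 and 41.4 FPKM in the first leaf, against 150 and 116 FPKM in the coleoptile (-1.55 ± 0.20, adjusted p = 0.00201). In white light it stood at 263 and 249 FPKM in the first leaf and 327 and 176 FPKM in the coleoptile. The small heat shock protein LOC_Os01g04350 was 355 and 394 FPKM in the first leaf and 125 and 75.2 FPKM in the coleoptile (1.93 ± 0.27).

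Some loci were listed in 1 organ alone. At 5 FPKM or more in both libraries of an organ and 0 in both of the other, there were 8 loci of the first leaf and 22 of the coleoptile. The leaf loci included a carboxyl-terminal peptidase (LOC_Os06g16640, 8.94 and 19.2 FPKM) and RALFL28 (LOC_Os06g29730, 11.7 and 11.2 FPKM), of a family of secreted signalling peptides, and also an FKBP-type peptidyl-prolyl isomerase (LOC_Os01g38359, 6.53 and 6.01 FPKM). The 22 coleoptile loci included 7 annotated THION genes of chromosome 6 and 1 thionin-like peptide. They also held LOC_Os01g24700, an expressed protein at 1295 and 1164 FPKM in the coleoptile that lies next to the jacalin-like lectin LOC_Os01g24710 in locus order and was picked out after its value was seen. An exact 0 can be a failed estimate, and no fold is given for them here.

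Called loci were spread over the chromosomes, at 16.8% to 21.9% of the tested loci of each, and in places stood in runs. In locus order there were 19 runs of 4 or more neighbouring tested loci called the same way, 7 higher and 12 lower in the first leaf. The longest was a run of 10 on chromosome 10 from LOC_Os10g31530 to LOC_Os10g31730, mostly glycine-rich wall proteins, lower in the leaf. LOC_Os10g31660 of this run stood at 0.657 and 0.10 FPKM in the first leaf, against 35.9 and 79.2 FPKM in the coleoptile (-5.33 ± 0.38, adjusted p = 1.97e-04), and no library in white light was above 0.393 FPKM. A run of 9 on chromosome 6 from LOC_Os06g31800 to LOC_Os06g32370 held thionins, a run of 5 on chromosome 4 peroxidases and a run of 5 on chromosome 10 the lipid transfer proteins LTPL139 to LTPL143, all lower in the leaf. The longest run of the leaf held 6 loci on chromosome 5, among them HAD superfamily phosphatases, with LOC_Os05g09704 at 287 and 235 FPKM in the first leaf and 115 and 70.2 FPKM in the coleoptile. Reads of such similar neighbours can be assigned to the wrong copy. The fit to all 8 libraries left 6 runs, and the fits without a coleoptile library left 8 and 5.

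Neighbours with the same annotation did not always go together. Of 670 adjacent pairs of tested loci with identical annotation text, both were called in 164, of which 127 went the same way and 37 opposite ways. Besides the expansins, 2 osmotins of chromosome 12, chosen after their values were seen, stood apart: LOC_Os12g38150 at 8.8 and 5.31 FPKM in the first leaf, against 30.7 and 26.8 FPKM in the coleoptile (-1.92 ± 0.24), and LOC_Os12g38170 at 4.55 and 12 FPKM in the first leaf, against 0.52 and 0.0853 FPKM in the coleoptile (2.73 ± 0.40). The call of LOC_Os12g38170 ended in the fit to all 8 libraries (adjusted p = 0.0835). The 2 cytochrome P450 loci LOC_Os10g38090 and LOC_Os10g38110, chosen in the same way, had differences of -4.30 ± 0.20 and 1.25 ± 0.16. The call of LOC_Os10g38110 ended in the fit to all 8 libraries (adjusted p = 0.117).

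The same organs in white light are separate libraries and give the same comparison a second time. There limma called 510 loci (2.44%), of which 274 (1.31%) were higher in the first leaf and 236 (1.13%) lower. Of the 2222 loci higher in shade, 1919 (86.4%) had positive differences in white light, where 52.3% of all tested loci did. Of the 1827 lower in shade, 1734 (94.9%) had negative differences in white light, where 47.6% of all tested loci did. Their median white light differences were 0.96 and -1.03. Called in both lights in the same direction were 476 loci, which is 11.8% of the calls in shade and 93.3% of those in white light. The white light count rests on coleoptile replicates that lie far apart. It was 1669 without white light coleoptile replicate 1, 1570 without replicate 2, and 0 without either white light first leaf library.

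**Figure D5:**
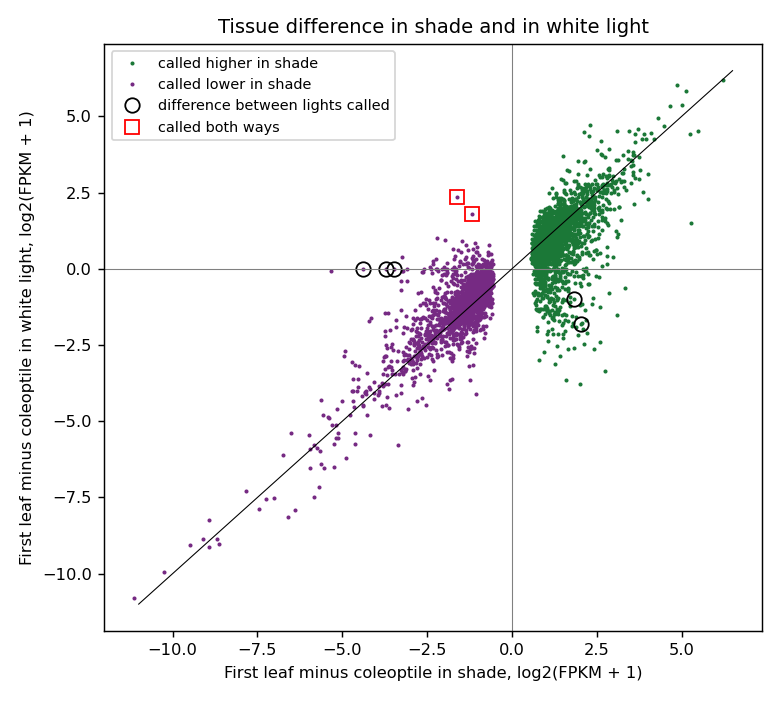
First leaf minus coleoptile in white light (vertical axis) against first leaf minus coleoptile in shade (horizontal axis), both as log2(FPKM + 1), for the 4049 loci called in shade, with equality as the black line. Most points lie to the upper right and lower left of zero, circles mark the 5 loci whose 2 differences differed by test, and squares mark the 2 loci called with opposite signs.

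Few loci had a tissue difference that itself differed between the lights. With all 8 libraries, limma called 5 loci (0.0239%), 2 more positive in shade (0.00956%) and 3 more negative (0.0143%), and 1165 at an unadjusted p under 0.05. Loci under a mean of 1 FPKM in the shaded libraries were not in this test. LOC_Os02g49720, an aldehyde dehydrogenase, of a family of enzymes that oxidise aldehydes, stood at 34.1 and 30.6 FPKM in the first leaf and 7.69 and 9.19 FPKM in the coleoptile in shade, and at 8.93 and 7.08 FPKM in the first leaf and 16.2 and 17.6 FPKM in the coleoptile in white light. The 3 that were more negative belong to the run on chromosome 10 and were at or near 0 outside the shaded coleoptile. There were 0 calls without any 1 of the 6 libraries other than the white light coleoptile, 36 without white light coleoptile replicate 1 and 738 without replicate 2. Opposite calls in the 2 lights were given to 2 loci. The MYB gene LOC_Os06g51260 stood at 2.11 and 2.22 FPKM in the first leaf and 8.44 and 4.42 FPKM in the coleoptile in shade (-1.18 ± 0.29), and at 20.8 and 17.7 FPKM in the first leaf and 4.23 and 5.45 FPKM in the coleoptile in white light. The expressed protein LOC_Os10g29159 stood at 0.875 and 0 FPKM in the first leaf and 2.49 and 4.0 FPKM in the coleoptile in shade, and at 5.61 and 3.05 FPKM in the white light first leaf, with 0 listed in both white light coleoptile libraries.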

How the data were processed

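RNA from the first leaf and the coleoptile of rice seedlings, in shade and in white light, was sequenced in 2 libraries a group (8 in all). FPKM values for 55801 loci were made and deposited by the authors. Per the submitters' processing notes, the tools included Trim Galore 0.3.7, TopHat2 2.0.14, Bowtie2 2.2.3 and the Cufflinks programs 2.2.1. The build, the annotation release and the strandedness are not given in the sources used, so overlapping or antisense transcripts cannot be told apart. The deposited table gives no fragment numbers, and the depth behind each value is unknown.

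The members and gene lists were chosen with earlier results of these data known. Loci whose mean in the 4 shaded libraries was 1 FPKM or more were taken as log2(FPKM + 1), with a pseudocount of 1, and fitted with limma 3.58.1 in R 4.3.3 (one mean per group, empirical Bayes with an intensity trend). P-values were adjusted by Benjamini and Hochberg over all 20916 loci, and a locus was called at an adjusted p under 0.05. The fit for shade used the 4 shaded libraries, that for white light the 4 others, and the difference of differences all 8. The fit for shade was tested on data simulated from its own fitted spread with known changes, and the other fits were not.

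Named loci are the 10 with the largest and smallest called differences among loci with an annotated function, the 5 most abundant called each way and up to 3 each way in each of 52 lists, which were drawn by annotation keywords, with mismatched entries removed, plus the phytochromes and loci at the edge of the filter or at 0 in 1 organ. Loci named for runs, neighbour pairs, opposite calls and the difference test, and the families marked so in the text, were picked after their values were seen. Replicate numbers were not shown to pair the samples: deviations of same-numbered shaded libraries correlated at -0.145, and of white light libraries at 0.0717. With 2 libraries a group this cannot exclude pairing. Alternatives changed the pseudocount, the filter, the scaling, the trend, the fold tested and the libraries fitted, and added a replicate block.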

Additional observations from a re-analysis of the deposited data

Results flagged for a closer look

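At 5 loci the difference between first leaf and coleoptile was itself unlike in shade and in white light by limma's test over all 8 libraries, and each is given here with that contrast, the difference in shade minus the difference in white light, on the log2(FPKM + 1) scale with limma's SE. LOC_Os02g49720, annotated as an aldehyde dehydrogenase, had a contrast of 2.82 ± 0.26 (adjusted p = 0.0432). It was above the coleoptile in the shaded leaf and below it in the white light leaf, with both replicates on the same side in each light. LOC_Os07g04410, annotated as a cytochrome P450 90C1, had a contrast of 3.84 ± 0.36 (adjusted p = 0.0432). Its levels in shade were 3.36 and 2.83 FPKM in the first leaf, with 0 listed in both coleoptile libraries, and in white light 0 was listed in both first leaf libraries, against 3.29 and 1.85 FPKM in the coleoptile. The other 3 lie in the run of chromosome 10. LOC_Os10g31530, a glycine-rich cell wall protein, had a contrast of -4.38 ± 0.33 (adjusted p = 0.0227), with 0.076 and 0.185 FPKM in the shaded first leaf and 19 and 26.7 FPKM in the shaded coleoptile. LOC_Os10g31680, annotated as a structural protein of the same kind, had a contrast of -3.73 ± 0.28 (adjusted p = 0.0227) and stood at 12.5 and 11.9 FPKM in the shaded coleoptile, with 0 listed in the other 6 libraries. LOC_Os10g31670, annotated as a retrotransposon protein, had a contrast of -3.49 ± 0.28 (adjusted p = 0.0269), with 0 and 0.0983 FPKM in the shaded first leaf and 10.6 and 10.9 FPKM in the shaded coleoptile. LOC_Os10g31530 and LOC_Os10g31670 were listed at 0 in all white light libraries. The contrasts of LOC_Os07g04410 and of the 3 loci of the run thus rest on values listed at 0. Their size is set by the pseudocount and is no fold. These loci passed the filter through 1 shaded organ alone, and a locus low in shade could not enter the test. None of the 5 was called with a pseudocount of 0.1, and reads of neighbouring copies in the run may be shared.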

How the results depend on the processing

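The 4049 calls in shade became 2272 in the fit to all 8 libraries and 1447 when tested against a minimum fold of 1.5, and ranged from 1603 to 3409 over the 4 fits without 1 library. Other settings gave 3043 calls with no filter, 2994 at a mean of at least 5 FPKM, 3934 and 3991 with pseudocounts of 0.1 and 5, 4184 with equal medians, 4241 with quantile normalization and 3933 without the trend. Of the 4049 loci, 55.99% remained called with all 8 libraries, and 43.42% and 38.73% without coleoptile replicate 1 and 2. A replicate block gave 3954 calls in shade, 421 in white light and 0 for the difference of differences, though the numbers were not shown to pair the samples. Shaded replicates taken crosswise as pairs, a choice made after seeing the data, gave 4926 calls and 34 runs of neighbours. The 510 white light calls became 2282 in the fit to all 8, with 0 to 1669 over the fits without 1 library. The 5 calls for the difference became 0 with a pseudocount of 0.1, and 0 to 738 without 1 library. The 19 runs became 8 with no filter, 12 at a mean of at least 5 FPKM, 6 with all 8 libraries, 5 with the minimum fold, and 5 to 18 without 1 library. Loci listed at 0 in 1 organ numbered 63 at 2 FPKM or more and 17 at 10 FPKM or more. The number of lists with a positive median was 36, and 31 to 39 over the settings. Of the 266 named loci 262 were called, 160 of them under every setting, and 0 changed sign. The cause of these shifts was not tested. Low values carry few reads at a depth the table does not give, so levels near 1 FPKM are the least precise.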
